A study of Drosophila melanogaster with 18 samples.

Results

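The genes described here encode subunits of the vacuolar proton pump (V-ATPase) of Drosophila melanogaster. They were chosen as the probes whose only gene symbol in the platform annotation begins with Vha and that had a value on all 6 slides. This gave 12 probes of the 5620 in the table, each for a different gene, so 12 of the 4143 named genes tested. No member was measured by more than 1 probe. Total RNA of animals switched to banana was hybridised together with total RNA of controls kept on cornmeal on 2-colour spotted slides. Each slide carried 3 sets of replicate spots. The slides formed 3 dye-flip pairs (slides 2 and 3, 30 and 29, 28 and 25, called pairs 1, 2 and 3), with banana RNA in channel 1 on slides 2, 30 and 28 and cornmeal RNA in channel 1 on slides 3, 29 and 25. The labels give the 2 diets and no strain, genotype, age, stage, sex, tissue, number of animals or duration of the diet. Nothing in them ties the pairs to separate cultures. The p-values computed from the 3 pair values therefore cover only the spread among the pairs, possibly a technical one. Those of F tests and of fits on 6 slides rest on the spread between slides.

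The V-ATPase is a rotary proton pump. Its peripheral V1 sector hydrolyses ATP in the cytosol, and its membrane-embedded V0 sector carries protons across the membrane. The pump acidifies lysosomes and endosomes in every cell. In insects it is also packed into the apical membranes of Malpighian tubule and gut cells, where the proton gradient drives ion and fluid transport. Several fly subunits are encoded by more than 1 gene, with a main isoform that is broadly expressed and others that are restricted to few tissues.

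Values are log ratios of the channels of a slide, taken as log2, averaged over the spot sets and centred on the slide median. The labels do not give the base, and every fold value below holds only if it is 2. Slides with cornmeal RNA in channel 1 were turned in sign, and the slides of a pair were averaged. The labels do not state which channel is the numerator. With channel 1 as the numerator a positive turned ratio stands for more transcript on banana, and with channel 2 as the numerator it stands for more transcript on cornmeal, so signs are given without a diet. A ratio sets no gene's level against another's. RNA came from bulk samples, in which fewer cells of a type and less RNA per cell cannot be told apart.

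Of the 8 subunits of V1, 5 were represented, namely B (Vha55), C (Vha44), D (Vha36-1), E (Vha26) and H (VhaSFD). From V0 came both the a isoforms Vha100-1 and Vha100-2 and the c (Vha16-1), c'' (VhaPPA1-1), d (VhaAC39-1) and e (VhaM9.7-c) subunits, 6 genes in all, and the accessory subunit gene VhaAC45 completed the set. The other 21 of the 33 Vha genes in the reference gene table were not analysed here. Among these are all 3 genes of the catalytic A subunit (Vha68-1, Vha68-2 and Vha68-3), the F and G subunit genes, the a isoform Vha100-4 and all 8 genes listed as isoforms of the testis. Vha100-1 is known as a neuronal isoform. The sources used here do not give the tissue range of the measured genes, VhaM9.7-c included. No class of tissue-restricted subunits was therefore compared with the widespread ones. VhaM9.7-c is 1 of 4 genes for the e subunit in that table.

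No pump gene differed between the diets past the multiple-testing threshold, and the ratios of the family ran from -0.28 for Vha100-1 to 0.39 for VhaM9.7-c. VhaM9.7-c, a gene for the small e subunit of the membrane sector, had a log2 ratio of 0.39 ± 0.0309 (SD, n = 3 pairs). The other 11 genes lay between -0.28 and 0.15, and all but Vha100-1 of these between -0.07 and 0.15. None of the 12 passed an adjusted p of 0.05 in limma, and across all 4722 rows tested (percent called: 0) none did either. At an unadjusted p under 0.05 limma called 1 of the 12, VhaM9.7-c, a share close to the 8.13% of all rows called, and 4.53% of all rows were called with a positive ratio. The ordinary one-sample statistic without shared variance also called 0 of 12 after adjustment. At its unadjusted threshold it called 3 of 12, VhaM9.7-c, VhaPPA1-1 and VhaSFD, and 6.82% of all rows. The SDs over pairs of these 3 genes, on which the ordinary statistic rests, stood at percentiles 2.08, 0.106 and 1.46 of all rows.

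**Figure D1:**
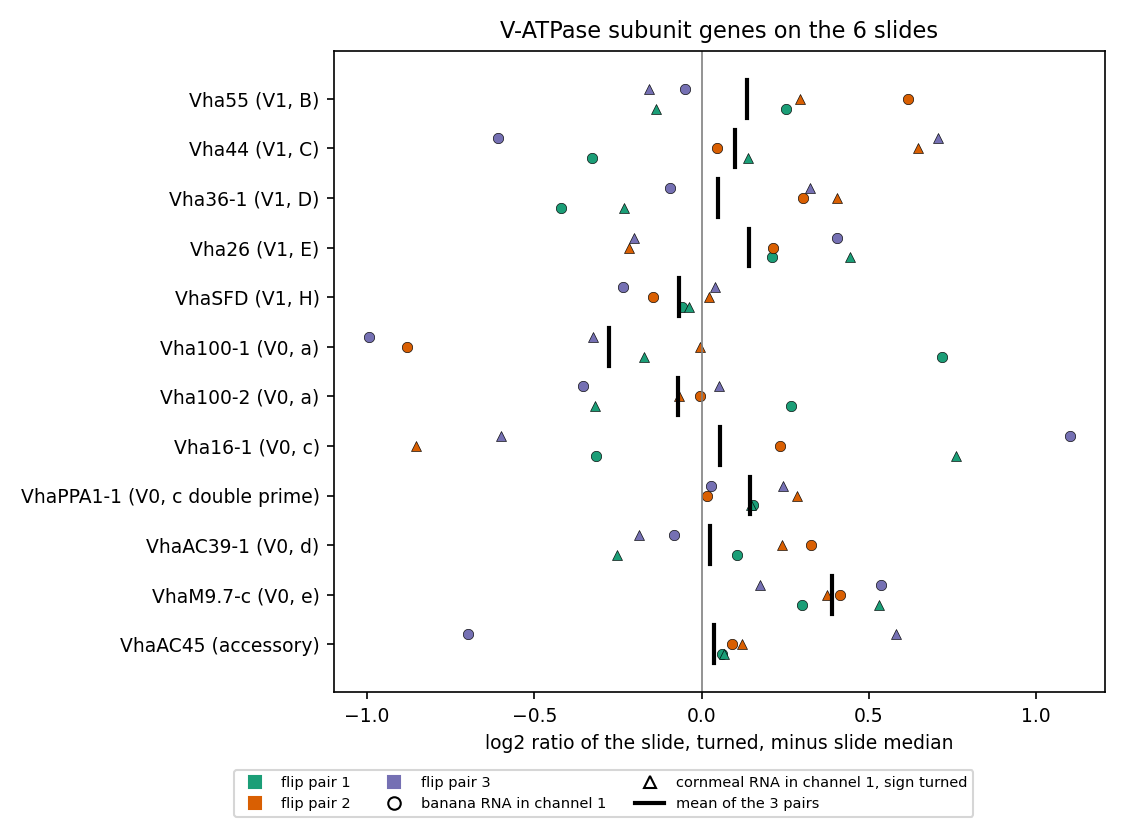
Turned log2 ratio of each V-ATPase subunit gene on each of the 6 slides, with colours for flip pairs, circles for slides with banana RNA in channel 1, triangles for slides with cornmeal RNA in channel 1 and black bars for the mean of the 3 pairs. VhaM9.7-c has all 6 slides between 0.17 and 0.54, and Vha16-1 spreads from -0.85 to 1.10.

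The 95% confidence interval of every one of the 12 ratios lay within a 2-fold difference in either direction. Apart from Vha100-1, whose interval ran from 0.548-fold to 1.24-fold, the intervals lay between 0.754-fold and 1.56-fold. The median ratio of the 12 genes was 0.05, against 0.00 over all rows, and their median size was 0.0859, against 0.124 over all rows. A positive mean was found for 9 of the 12 genes and for 50.2% of all rows. The sign was the same in the 3 pairs for 4 genes. These were VhaM9.7-c and VhaPPA1-1 with positive ratios, where 15.4% of all rows were positive in all 3 pairs, and VhaSFD and Vha100-2 with negative ratios, where 15.1% of all rows were negative. No member was negative on all 6 slides, as 2.67% of all rows were.

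VhaM9.7-c had the largest ratio of the members in size, at percentile 87.4 of the sizes over all rows. The gene had the same sign throughout. On slides 2 and 3 of pair 1 it had turned values of 0.30 and 0.53, on slides 30 and 29 of pair 2 it had 0.41 and 0.37, and on slides 28 and 25 of pair 3 it had 0.54 and 0.17. All 6 slides were positive, which also held for 3.94% of all rows. The pair ratios of 0.42, 0.39 and 0.36 corresponded to a mean difference of 1.31-fold, with a 95% interval of 1.10-fold to 1.56-fold (limma, unadjusted p = 0.013, adjusted p = 0.452). With each spot set centred on its own median, all 18 of its replicate spots were positive, from 0.13 to 0.66. Of the 3911 probes with a value in every spot set, 1.07% had 18 positive spots. The replicate spots of 1 slide differed by an SD of 0.127, so the lower value of slide 25 (spots at 0.13, 0.13 and 0.21) against slide 28 (0.27, 0.64 and 0.66) was present in every spot set.

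The channel component of VhaM9.7-c, the part of the ratio that does not turn with the dye flip, was 0.03, with an interval of -0.26 to 0.31. Its ratio did not differ detectably between the pairs (limma F test, adjusted p = 0.998), and the largest difference between any 2 pairs was 0.06, with an interval half-width of 0.70. The mean ratio stayed between 0.37 and 0.43 in 12 alternative treatments of the data, with limma or ordinary adjusted p from 0.144 to 1.00. If the deposited values had already been turned, its ratio would be 0.03.

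**Figure D2:**
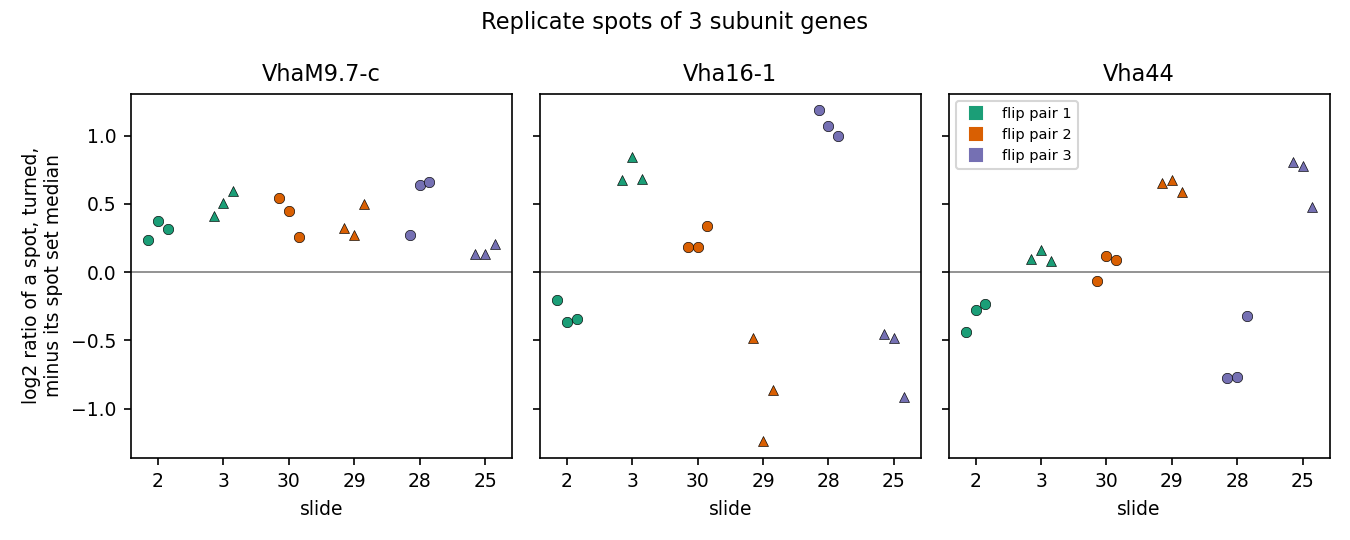
Turned log2 ratio of each replicate spot, minus the median of its spot set, on the 6 slides for VhaM9.7-c, Vha16-1 and Vha44, with circles for banana RNA in channel 1 and triangles for cornmeal RNA in channel 1. All 18 spots of VhaM9.7-c lie above 0. The slides of Vha16-1 have opposite signs in every pair, and those of Vha44 in pairs 1 and 3, while in pair 2 both Vha44 slides are positive, at 0.04 and 0.65.

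The rest of the V0 sector fell into genes with small, even ratios and genes whose slides disagreed. VhaPPA1-1, the c'' proteolipid of the proton-carrying ring, had turned values of 0.15 and 0.15 in pair 1, 0.02 and 0.29 in pair 2 and 0.03 and 0.24 in pair 3. It was the only other gene that was positive on all 6 slides, with a mean of 0.15 ± 0.00831 (SD, n = 3), a 1.11-fold difference (limma adjusted p = 0.742). The pair means were closer together than the slides that made them up, and the SD over pairs stood at percentile 0.106 of all rows. In 13 of its 18 spots the turned value was positive. At its unadjusted threshold the ordinary statistic, which rests on that small SD alone, gave VhaPPA1-1 a p of 0.00108 from the 3 pair values, against 0.187 with limma.

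Vha100-2, the a subunit isoform prominent in fly epithelia, had 0.27 and -0.32 in pair 1, -0.01 and -0.07 in pair 2 and -0.35 and 0.05 in pair 3. The values straddled 0, with a mean of -0.07 ± 0.0688 (SD, n = 3; limma adjusted p = 0.881). VhaAC39-1, the d subunit that couples the central stalk to the ring, had 0.11 and -0.25 in pair 1, 0.33 and 0.24 in pair 2 and -0.08 and -0.19 in pair 3. Both of its slides were positive in pair 2 and both were negative in pair 3, and the mean was 0.03 ± 0.226 (SD, n = 3).

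Vha100-1, the neuronal a subunit isoform known from its role at synapses, had the lowest mean, -0.28 ± 0.487 (SD, n = 3; limma adjusted p = 0.786). On the slides it stood at 0.72 and -0.17 in pair 1, -0.88 and -0.01 in pair 2 and -0.99 and -0.32 in pair 3. Of its slides 5 of 6 were negative, and the exception was slide 2. The replicate spots of a slide differed by an SD of 0.665 for this gene, more than 3 times the 0.208 of the next most variable member, VhaAC45, and spots ranged from -1.73 to 1.55. It was also the 1 member with a missing spot, with 17 of 18 values. The missing spot was that of set 1 on slide 3. With each spot set centred on its own median, the other spots of slide 3 were positive, at 0.05 and 0.02. The negative sign of slide 3 therefore depended on averaging the spot sets before centring. Without pair 1 the ratio of Vha100-1 was -0.55, and without pair 3 it was -0.09.

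Vha16-1, the main c proteolipid of the ring, had a mean of 0.05 ± 0.316 (SD, n = 3; limma adjusted p = 0.941) made from slide values far from 0. They were -0.31 and 0.76 in pair 1, 0.23 and -0.85 in pair 2 and 1.10 and -0.60 in pair 3. The slides of every pair had opposite signs after turning, which means that before turning they had the same sign. In the deposited direction the slides of pair 1 stood at -0.31 and -0.76, those of pair 2 at 0.23 and 0.85 and those of pair 3 at 1.10 and 0.60, giving channel components of -0.54, 0.54 and 0.85. Their mean of 0.28 did not pass (limma adjusted p = 0.725). With slides kept in the deposited direction, a limma F test between pairs gave Vha16-1 an unadjusted p of 0.0447 and an adjusted p of 1.00, and 4% of all rows had an unadjusted p under 0.05. Vha16-1 was the 1 member so called. Replicate spots of a slide differed by an SD of 0.201, less than these differences between slides.

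In the V1 sector no subunit gene kept a positive sign in all 3 pairs. Vha55, the B subunit of the ATP-hydrolysing head, had 0.25 and -0.14 in pair 1, 0.62 and 0.29 in pair 2 and -0.05 and -0.16 in pair 3. It was positive on both slides of pair 2 and negative on both slides of pair 3, as VhaAC39-1 was, and averaged 0.14 ± 0.287 (SD, n = 3; limma adjusted p = 0.85). Vha36-1, the D subunit of the rotating central stalk, had -0.42 and -0.23 in pair 1, 0.30 and 0.40 in pair 2 and -0.09 and 0.33 in pair 3. Its mean of 0.05 ± 0.344 (SD, n = 3) thus combined a negative pair 1 with a positive pair 2. The difference between those pairs was -0.68, with an interval half-width of 0.63, and the limma F test over the 3 pairs gave an unadjusted p of 0.0932 and an adjusted p of 0.636.

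Vha26, the E subunit of the peripheral stalk, had 0.21 and 0.44 in pair 1, 0.21 and -0.22 in pair 2 and 0.40 and -0.20 in pair 3. Its mean was 0.14 ± 0.168 (SD, n = 3; limma adjusted p = 0.794), with both slides positive in pair 1 only. VhaSFD, the regulatory H subunit, stayed close to 0 on every slide, between -0.24 and 0.04, with a mean of -0.07 ± 0.0257 (SD, n = 3; limma adjusted p = 0.882). Its pair ratios were -0.05, -0.06 and -0.10, but only 4 of its 6 slides were negative.

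Vha44, the C subunit that joins V1 to V0, had 0.10 ± 0.224 (SD, n = 3; limma adjusted p = 0.874). Its slides again disagreed within each pair, with -0.33 and 0.14 in pair 1, 0.04 and 0.65 in pair 2 and -0.61 and 0.71 in pair 3. The slide with cornmeal RNA in channel 1 was the higher one each time. In the deposited direction this is a negative channel component in every pair, at -0.23, -0.30 and -0.66, with a mean of -0.40 and an interval of -0.73 to -0.07 (limma, unadjusted p = 0.0276, adjusted p = 0.517). Of its 18 spots, 16 were negative in that direction. Vha44 was the 1 member of 12 with an unadjusted p under 0.05 for the channel component, which held for 9.36% of all rows, and for 6.14% with a negative value. No row passed an adjusted p of 0.05 for the channel component in limma.

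The accessory subunit gene VhaAC45 was even in pairs 1 and 2, with 0.06, 0.07, 0.09 and 0.12 on their 4 slides, and split in pair 3, with -0.70 on slide 28 and 0.58 on slide 25. The slides of pair 3 thus lay 1.28 apart, while the mean over pairs was 0.04 ± 0.0857 (SD, n = 3; limma adjusted p = 0.938). ATP6AP2, a further accessory protein of the pump whose symbol does not begin with Vha, had 0.04 ± 0.137 (SD, n = 3), with pair ratios of -0.02, 0.19 and -0.06.

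**Figure D3:**
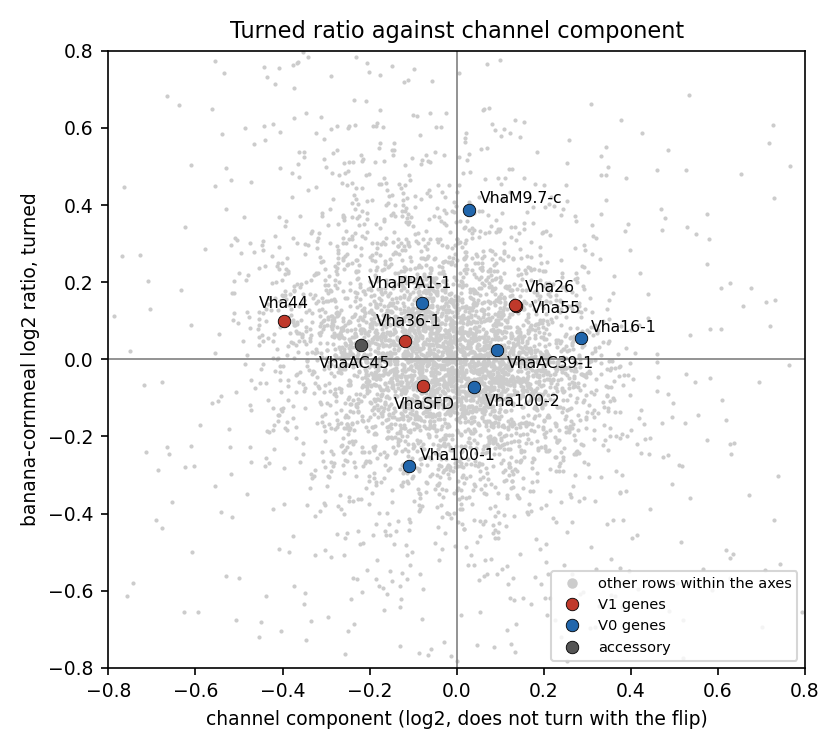
Turned banana-cornmeal log2 ratio (vertical axis) against the channel component (horizontal axis) for V1 genes, V0 genes and VhaAC45 over the other rows within the axes. VhaM9.7-c lies at 0.39 with a channel component of 0.03, and Vha44 lies at 0.10 with a channel component of -0.40.

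The sectors were set side by side without a test of their difference. In pair 1 the median ratio was -0.05 for the 5 V1 genes and 0.19 for the 6 V0 genes. In pair 2 it was 0.35 for V1 and 0.06 for V0, and in pair 3 it was 0.05 and 0.00. Over all rows the pair medians were -0.01, 0.01 and 0.00. The ranges of the sectors overlapped in every pair, from -0.33 to 0.33 for V1 and -0.07 to 0.42 for V0 in pair 1, from -0.06 to 0.46 and -0.44 to 0.39 in pair 2, and from -0.10 to 0.12 and -0.66 to 0.36 in pair 3. Positive ratios were found for 2, 3 and 3 of 5 V1 genes and for 4, 3 and 3 of 6 V0 genes in pairs 1, 2 and 3, where 48.6%, 52.2% and 50.9% of all rows were positive. Over the pairs together the medians were 0.10 for V1 and 0.04 for V0. Without pair 2 the V1 median was -0.02. Vha100-1 and VhaM9.7-c, both of V0, stood at opposite ends of the family, at -0.28 and 0.39.

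**Figure D4:**
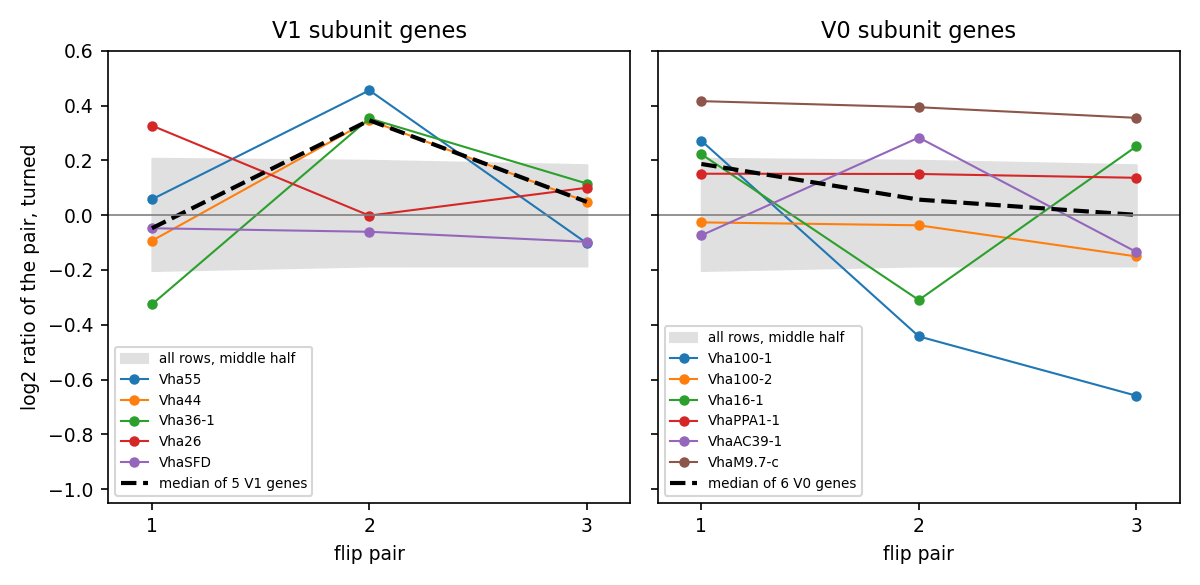
Turned log2 ratio of each V1 gene (left) and V0 gene (right) in the 3 flip pairs, with the class median as a dashed line and the middle 50% of all rows as a grey band. The V1 median lies at -0.05, 0.35 and 0.05, and VhaM9.7-c lies above the band in every pair.

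No member differed between the pairs past the adjusted threshold of the limma F test, where 0.191% of all rows passed, and 0 of 12 had an unadjusted p under 0.05, against 9.3% of all rows. The interval half-width of a difference between 2 pairs, without adjustment for the number of tests, ran from 0.62 to 1.85 over the members. A difference smaller than its half-width has an interval that includes 0. The difference of -0.68 between pairs 1 and 2 for Vha36-1 lay past its half-width of 0.63, and this gene did not pass the F test either. Vha55, Vha36-1 and VhaAC39-1 had both slides of 1 pair positive and both slides of another negative. That is 3 of 12 genes, and 26.5% of all rows showed it.

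Of the 36 combinations of a member and a pair, 20 had slides of the same turned sign, against 51.5% over all rows. Across rows, which are not independent replicates, the turned values of the slides of a pair correlated at r = 0.21 in pair 1, 0.39 in pair 2 and 0.09 in pair 3. Pair 3, in which Vha16-1, Vha44 and VhaAC45 disagreed most between slides, also had the largest typical spread between its slides, with a median SD of 0.342 per row against 0.231 and 0.23.

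The genes around the pump gave no value past the adjusted threshold of limma either. Of the list of 12 genes for pump assembly and regulation 3 were measured. None of the 3 had a positive ratio, against 50.2% of all rows. The median of the 3 was -0.22, led by Mondo, a sugar-sensing transcription factor gene, at -0.40 ± 0.204 (SD, n = 3; limma adjusted p = 0.568). Mondo was negative on 6 of 6 slides, as 2.67% of all rows were. RagC-D, a GTPase gene of nutrient sensing at the lysosome, had -0.22 and Rbcn-3B, a gene for pump assembly, had -0.02. Of 28 listed genes for membrane transport driven by or beside the pump 14 were measured, with a median of -0.06. A positive ratio was found for 5 of the 14, against 50.2% of all rows. Among the 14 the carbonic anhydrase gene CAH2 had the smallest p, at -0.59 ± 0.0783 (SD, n = 3; limma adjusted p = 0.403). It was negative on 6 of 6 slides, as 2.67% of all rows were. CAH2 did not have a value in every spot set. Its ratio was -0.68 with each spot set centred and -0.91 with the median over spot sets. The sodium pump beta subunit gene nrv2 had the smallest p on the positive side, at 0.18 ± 0.128. Nha1, a cation-proton antiporter gene, stood at -0.20 ± 0.0321. An unadjusted limma p under 0.05 was found for 1 gene of each of these lists, Mondo and CAH2, and for 8.13% of all rows.

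Of 40 listed lysosome genes 11 were measured, with a median of 0.08. A positive ratio was found for 8 of the 11, against 50.2% of all rows. In limma 2 of the 11 had an unadjusted p under 0.05, both positive, where 4.53% of all rows were called on that side. These were the lipase gene mag, at 1.14 ± 0.221 (SD, n = 3; limma adjusted p = 0.403), and the alpha-mannosidase gene LManV, at 2.36 ± 1.12, both of which were also on the midgut list. On the other side, the cathepsin B gene CtsB had -0.31 ± 0.179 (limma adjusted p = 0.626). The transporter gene spin of late endosomes and lysosomes had pair ratios of 0.01, 0.15 and 0.07, in the range of most pump genes.

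Marker genes of tissues in which the pump is abundant were followed for comparison. Of 13 Malpighian tubule markers 4 were measured, with ratios from -0.20 to 0.08 and a median of -0.06, Nha1 lowest and the transporter gene SLC5A11 highest. The 7 measured of 13 midgut markers ran from -2.36 to 2.36, with 3 positive and 4 negative in all 3 pairs, where 15.4% and 15.1% of all rows were. An unadjusted limma p under 0.05 was found for 2 of the positive and 3 of the negative ones, and for 8.13% of all rows. The smallest p-values among the midgut markers belonged to mag and to yip7, a serine protease gene, at -0.88 ± 0.28 (SD, n = 3; limma adjusted p = 0.403). Of 10 testis and male markers 3 were measured, Acp36DE at 0.16, Mst98Ca at -0.10 and ocn at -0.27. Leaving out each pair in turn moved Acp36DE between 0.05 and 0.23 and ocn between -0.46 and -0.01.

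All 4 measured of 6 muscle markers were positive in all 3 pairs, where 15.4% of all rows were. Each had an unadjusted limma p under 0.05, as 4.53% of all rows did with a positive ratio. The ratios of the 4 markers ran from 0.39 to 0.65, with bt at 0.55 ± 0.211 (limma adjusted p = 0.452). VhaM9.7-c had the same sign and a ratio at the lower end of that range, and the part of muscle or midgut RNA in its ratio was not tested.

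The pattern of VhaM9.7-c over the 6 turned slides was most like that of p53 (Pearson r = 0.99), CG32095 (r = 0.98) and CG31231 (r = 0.98) among named genes outside the family. These 3 genes were picked for the highest of all such correlations over only 6 values, so a high r was built in. The likeness concerns the order and spacing of slides, which come as 3 flip pairs, and not the size. Their mean ratios were 0.15, 0.11 and 0.05, and each was negative on slides 2 and 25, where VhaM9.7-c was lowest but positive.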

How the data were processed

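All 18 columns of the deposited table were used, each holding the log2 ratios of 1 spot set over 5620 probes. Scanning, background correction and normalisation by the authors, like the numerator of the ratio and the base of its logarithm, are not given in the sources used here. The base is an inference: the values run from -16.02 to 13.21, wider than natural logarithms of 16-bit signals (at most 11.09) allow, though the lowest also lies just past 16, the bound for base 2. Column medians lay between -0.69 and 0.35, and a column held 4860 to 5149 values. No intensities were used, so signal over background is unknown. The number of arrays limits the precision.

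Spot sets were averaged, slides centred on their median, probes of 1 gene with a value on all 6 slides averaged, slides with cornmeal RNA in channel 1 turned, and the slides of a pair averaged, since spot sets and dye flips are technical repeats. The flip partners come from the labels. The 4722 rows (4143 named genes, 579 unnamed probes) were tested against 0 in limma 3.58.1 (lmFit and eBayes; R 4.3.3), with 2 residual and 2.15 prior degrees of freedom, two-sided, with Benjamini-Hochberg adjustment over all rows and a threshold of 0.05. The channel component was fitted without turning. For differences between pairs the F test of limma was run on slides, with pair and orientation as terms, so that its error is that of repeat hybridisations. The procedure was run on simulated data with planted changes. These were larger than any ratio or pair difference of the pump genes, so power for changes of the members' size was not tested. Gene symbols come from the platform annotation, and 4876 of 4955 single-gene probes were found in the Release 6 gene table. The probes have no named build, so no coordinates are given.

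The members, gene lists and tests were chosen with earlier results of these data known. All members are named, with the gene of smallest p per sign of each list and the 3 genes most like VhaM9.7-c. Mst98Ca, spin, LManV, RagC-D and Rbcn-3B were named after their values were seen. Matplotlib 3.10.9 (Python 3.11.15) drew the figures.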

Additional observations from a re-analysis of the deposited data

How the results depend on the processing

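No member passed the adjusted threshold for the diet ratio, the channel component or the difference between pairs in any alternative run. Apart from leaving slides unturned, 6 of the 12 members kept the sign of their diet ratio (Vha100-1, Vha26, VhaAC45, VhaM9.7-c, VhaPPA1-1 and VhaSFD). The causes of the changes below were not tested.

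Leaving out each pair in turn, the diet ratio ranged from -0.044 to 0.24 for Vha16-1, -0.11 to 0.23 for Vha36-1, -0.023 to 0.20 for Vha44, -0.022 to 0.26 for Vha55, -0.10 to 0.10 for VhaAC39-1, -0.040 to 0.088 for ATP6AP2, -0.040 to 0.15 for SLC5A11 and -0.047 to 0.14 for CG31231. Without a change of sign it ranged from 0.049 to 0.21 for Vha26, 0.0016 to 0.084 for VhaAC45, -0.094 to -0.032 for Vha100-2 and -0.55 to -0.085 for Vha100-1. The channel component ranged from 0.0029 to 0.70 for Vha16-1, -0.39 to 0.055 for Vha100-1, -0.086 to 0.16 for Vha100-2, -0.33 to -0.0097 for VhaAC45, 0.049 to 0.26 for Vha26 and -0.048 to 0.10 for VhaM9.7-c. Over all rows limma then gave 0 to 1 adjusted and 209 to 594 unadjusted calls for the diet ratio, against 0 and 384, and 0 to 13 and 214 to 886 for the channel component, against 0 and 442. The median over spot sets gave diet ratios of 0.018 for Vha100-2, -0.0015 for VhaAC39-1 and -0.0017 for CG31231, and without centring the channel component was -0.0083 for Vha100-2 and -0.020 for VhaM9.7-c.

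With no slide turned, the diet ratio was 0.041 for Vha100-2, -0.12 for Vha36-1, -0.40 for Vha44, -0.22 for VhaAC45, -0.080 for VhaPPA1-1, -0.26 for SLC5A11, -0.22 for Acp36DE, 0.51 for ocn, -0.18 for nrv2 and -0.25 for ATP6AP2. In that state, chosen after seeing the data for this test, the F test between pairs gave 0 adjusted and 189 unadjusted calls over all rows, against 9 and 439. Its adjusted count was 14 without centring, 28 with the median over spot sets, 108 over rows with all 18 values and 5 with every probe a row. The channel component had 2 adjusted calls without centring and 2 with the median over spot sets.

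With the 6 slides as units the limma fit gave 20 adjusted calls for the diet ratio with the pair as a replicate block and 1 with no block, none of them a member. The correlation of slides within a pair was estimated at -0.088, and these fits treat repeat hybridisations as if they were replicates. VhaM9.7-c had adjusted p of 0.144 with the block and 0.201 without. All alternatives but the unturned F test and averaging incomplete probes into their gene were chosen with the tests.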
